A study of Schizosaccharomyces pombe with 6 samples.

Results

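Fission yeast Pds5 fused to GFP was mapped by chromatin immunoprecipitation (ChIP) on 1 two-colour tiling array of cells lacking clr4 and on 2 arrays of wild-type cells. These 3 arrays of the 6 in the series were taken by their genotype labels. A single array of Pds5-GFP in cells lacking swi6 (swi6D) is set beside them at the close of the results. A further array, of dimethylated histone H3 lysine 9 (H3K9me2) in wild-type cells, was used to sort probes by the amount of that mark. It also served to set the silent mating-type region and, with the H3K9me2 array of cells lacking pds5, the central domains of the centromeres. Cells in logarithmic growth in YEA medium at 30 °C were fixed with 3% paraformaldehyde. For Pds5, cells were first moved to 18 °C for 2 h, and DMA was used besides. Every Pds5 strain carried the Pds5-GFP fusion, precipitated with an antibody against GFP. A GFP precipitation from untagged cells was not analysed here. The deletion of clr4 is written clr4D below, as in the labels. Whether the wild-type arrays came from separate cultures is not stated, and no source used here gives the strains' further genotype.

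Clr4 is the only H3K9 methyltransferase of fission yeast. It places the mark on nucleosomes of the pericentromeric repeats, the silent mating-type cassettes and the chromosome ends, where Swi6, an HP1 protein, binds it. Cohesin, the ring that holds sister chromatids together, is recruited to such chromatin through Swi6, and Pds5 is a regulatory subunit that associates with the ring. Along the arms, fission yeast cohesin is known to gather between convergent genes.

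The value of a probe is the log2 of its ChIP signal divided by its extract signal, less the median of its array, so that 0 is the typical level of the genome and 1 is 2-fold enrichment over it. Positions are the array's own tiles, spaced by 300 bp. From 99.91% to 99.98% of the spots of the 3 arrays stood well above background in both channels, and none was saturated. In the extract, the 5 probes of clr4 (chromosome II, tiles 457500 to 458700) lay at 0.01 and -0.13 in the wild-type arrays and at -6.55 in clr4D. At pds5 (12 probes) the Pds5-GFP ratio was 0.21, 0.12 and 0.19. The clr4D array was on a slide that held no wild-type Pds5-GFP array, so slide and genotype cannot be told apart in anything that follows. With a single mutant array, a region's difference is a description set beside the gap between the wild-type arrays.

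Pds5-GFP was lost from heterochromatin in clr4D, but not to the same level everywhere. At the pericentromeric repeats the median ratio remained near 1. Over the outer 50 kb at the ends of chromosomes I and II the medians came down close to the genome's typical level. At the repeats of the first centromere (63 probes) the wild-type arrays had medians of 4.13 and 4.24 (4.19 ± 0.08, SD, n = 2) and clr4D had 1.01, a difference of -3.18. At the second (74 probes) the values were 3.54, 3.62 and 1.18, and at the third (125 probes) 3.89, 4.05 and 0.99. Of the 262 repeat probes, 260 were lower in clr4D than in both wild-type arrays. Over all chromosome and mating-type probes that share was 33.6%, which includes the probes of heterochromatin. Without the probes whose names carry a shared suffix, the differences were -1.31, -1.05 and -0.83 at these centromeres, in the same order. In clr4D 140 of the 262, or 53.4%, kept a ratio of 1 or more, and 43 were under 0.5. Genome-wide, 690 probes (1.68%) stood 1 or more below both wild-type arrays, and 1 probe (0.00243%) stood as far above both.

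**Figure D1:**
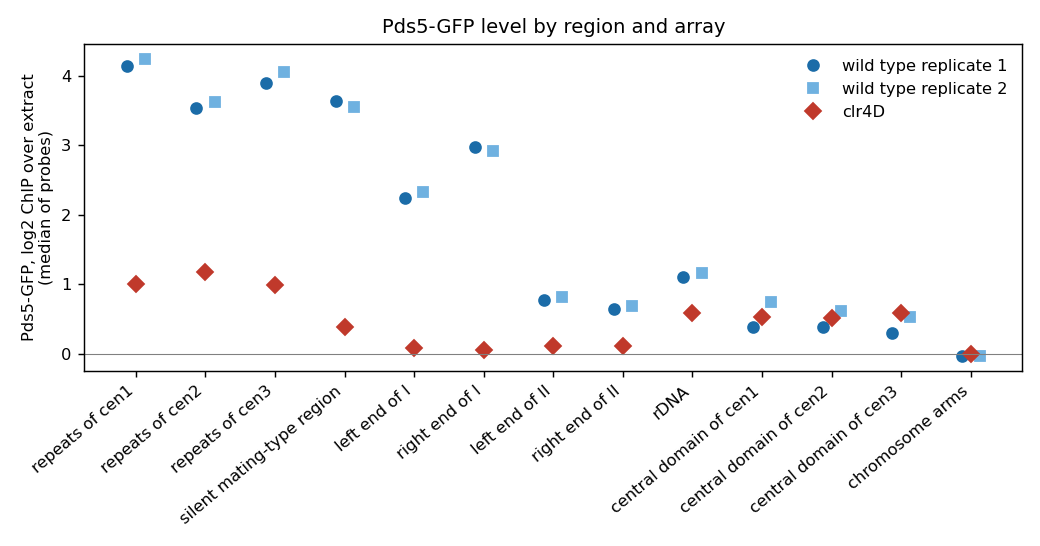
Median Pds5-GFP log2 ratio over the probes of each region (vertical axis), 1 point for each of the 3 arrays. In clr4D the repeats stay near 1, the ends of chromosomes I and II lie between 0.06 and 0.11, and the central domains lie close to the wild-type points.

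The silent mating-type region (53 probes) holds the cassettes that are copied into mat1 when cells switch type. It went from 3.64 and 3.55 to 0.38, a difference of -3.21, and all 53 probes fell below both wild-type arrays. The left end of chromosome I (outer 50 kb, 156 probes) went from 2.24 and 2.32 to 0.09, and the right end (159 probes) from 2.97 and 2.92 to 0.06. Each probe of both ends was lower in clr4D than in both wild-type arrays. The ends of chromosome II started from less, 0.78 and 0.81 at the left (116 probes) and 0.64 and 0.68 at the right (156 probes), and stood at 0.11 each in clr4D. The gap between the wild-type arrays was at most 0.16 in any of these regions. The ends therefore met at low clr4D levels from very different starting levels. The silent region stayed above them, at 0.38, and the repeats remained higher still.

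The central domains, on which the kinetochores are built and which carry the histone H3 variant CENP-A, moved by less than the gap between the wild-type arrays. Their 90 probes had medians of 0.39 and 0.63 in wild type and 0.53 in clr4D. Of these probes 32 lay below both wild-type arrays and 26 above both. Their extract was dim, at -3.24, -3.93 and -3.81 relative to the array medians, so these ratios rest on weak signals. The sign of the difference turns with several settings.

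The residual level at the repeats varied among probes. Many probes of repeats carry a name suffix shared among probes, and no source used here explains it. The 215 repeat probes with it went from 4.09 and 4.2 to 1.05, a difference of -3.09. The 47 without it started lower, at 2.09 and 2.06, and went to 0.90, a difference of -1.17. The clr4D medians of the latter differed between centromeres, at 1.03 for the first (6 probes), 1.36 for the second (17 probes) and 0.75 for the third (24 probes), where 2 of 24 were at 1 or more against 57 of 101 probes with the suffix. By side, the 6 flanking blocks of repeats had clr4D medians between 0.92 and 1.21, although single probes ran from -0.42 to 2.22. Low probes came in stretches, as on both sides of the first centromere and in the inner left repeats of the second. Under the alternative treatments of the signals the clr4D median of the repeats ranged from 0.63 with loess normalisation to 1.82 for the ChIP channel alone, and it was above those of the silent region and the 4 ends in each of them. In the ChIP channel alone, however, the left end of I also kept 1.14, where the extract was at 0.95. The extract at the repeats was at 0.52 and 0.57 in wild type and at 1.16 in clr4D. The part of the extract in these ratios was not tested.

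**Figure D2:**
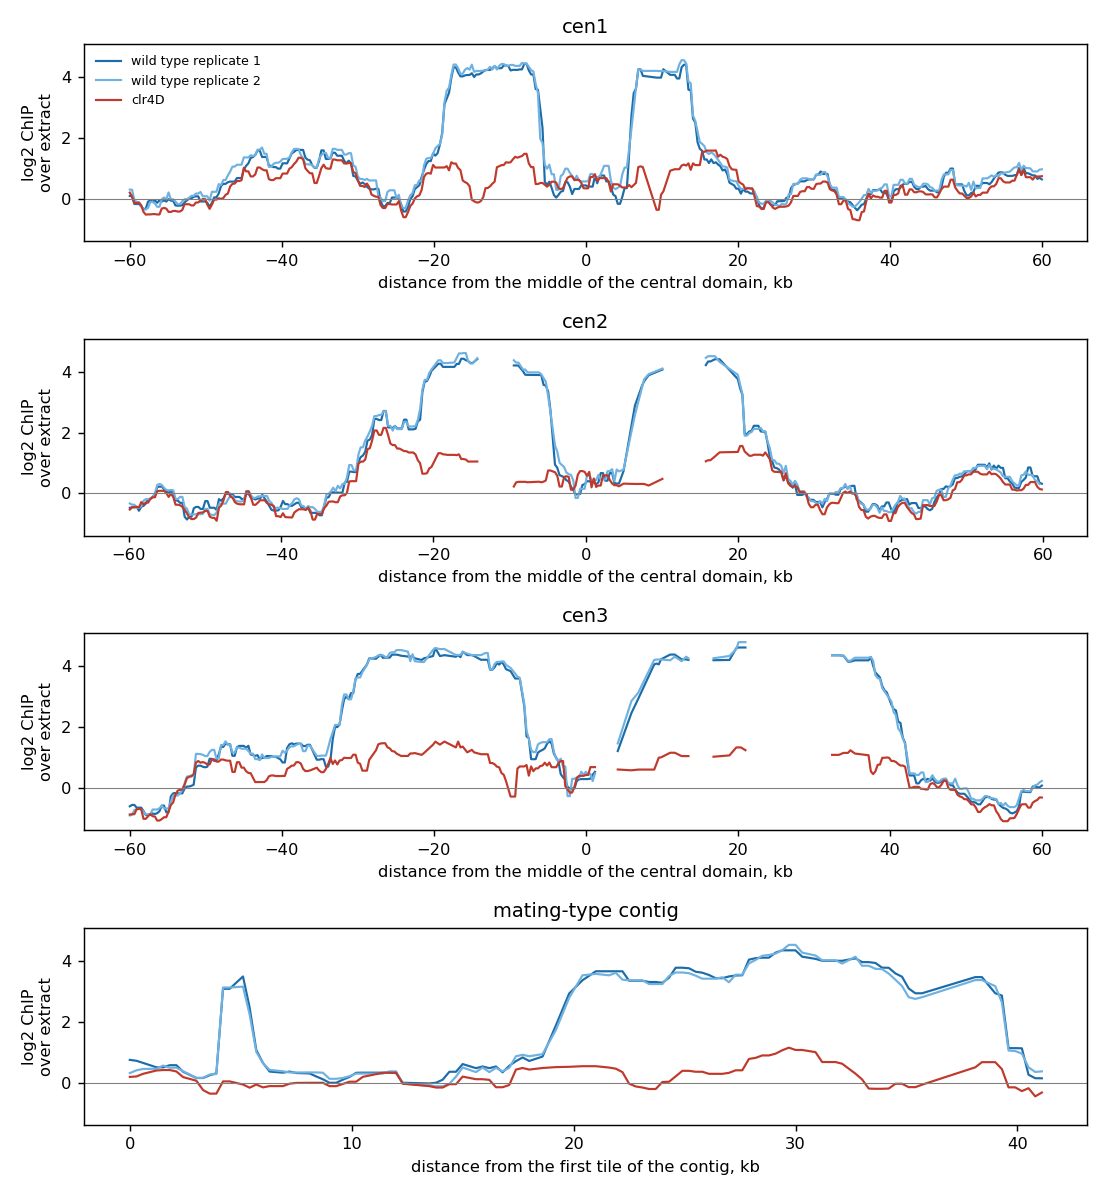
Pds5-GFP log2 ratio (running median of 3 probes) against distance from the middle of each centromere's central domain, and along the mating-type contig, in kb; 1 line per array, broken where tiles are missing. The wild-type lines form plateaus near 4 over the repeats, while the clr4D line varies around 1 there, with stretches near 0, and lies close to the wild-type lines in the central domains.

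The gene-bearing flanks of the centromeres differed from side to side. On the left of the third centromere, Pds5-GFP fell over 9 kb. In the first 3 kb it went from 1.38 and 1.35 to 0.70, in the next 3 kb from 1.02 and 1.0 to 0.36, and in the next from 1.33 and 1.25 to 0.52. All 30 probes there were below both wild-type arrays. On the right of the first centromere the level was higher in clr4D. From 3 to 6 kb outside the repeats the wild-type arrays had 0.50 and 0.61 and clr4D 1.02, with all 10 probes above both, against 38.9% of all probes. Further out, from 12 to 15 kb, the same flank was lower in clr4D (0.52, 0.59 and 0.16). Many tRNA genes in centromeres border the heterochromatin. The 23 of them that could be placed had medians of 2.12 and 1.84 in wild type and 0.67 in clr4D. Those of the second centromere are largely missing from the 23, since tiles 1598700 to 1649700 of chromosome II could not be placed. The 116 tRNA genes elsewhere had 0.32, 0.31 and 0.28.

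The mating-type contig resolved the loss further. At 21 to 24 kb from its first tile the wild-type arrays had 3.38 each and clr4D -0.04, and at 33 to 36 kb they had 3.68 and 3.48 against -0.16. Between these, at 27 to 30 kb, clr4D kept 0.85 against 4.07 and 4.10, and at 30 to 33 kb it kept 0.68 against 4.07 and 4.18. The wild-type level was highest where the residue was. The extract of clr4D was also higher there, by 0.66 and 1.03. Outside the silent region, the tiles from 3 to 6 kb, which include a narrow wild-type peak, went from 1.07 and 1.01 to -0.17.

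The wild-type H3K9me2 level, read on an array that the Pds5-GFP comparison does not use, ordered the loss. Where H3K9me2 was under 0 (20004 probes) the median change from probe to probe was 0.05. It was 0.00 from 0 to 1, -0.14 from 1 to 2 (2022 probes), -0.31 from 2 to 3 (836 probes), -0.32 from 3 to 4 (288 probes), -0.90 from 4 to 5 (173 probes), -2.07 from 5 to 6 (215 probes) and -3.18 at 6 or more (357 probes). In this last class the wild-type medians were 3.72 and 3.71 and the clr4D median 0.66, and 356 of 357 probes lay below both wild-type arrays. Over 39905 probes, H3K9me2 and the change correlated at r = -0.75 (Spearman rho = -0.301), and over the 1033 with H3K9me2 of 3 or more at r = -0.846. H3K9me2 correlated with wild-type Pds5-GFP at r = 0.537 and with clr4D at r = 0.10. These are descriptions over probes, which are not replicates and share the base composition of their tiles.

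**Figure D3:**
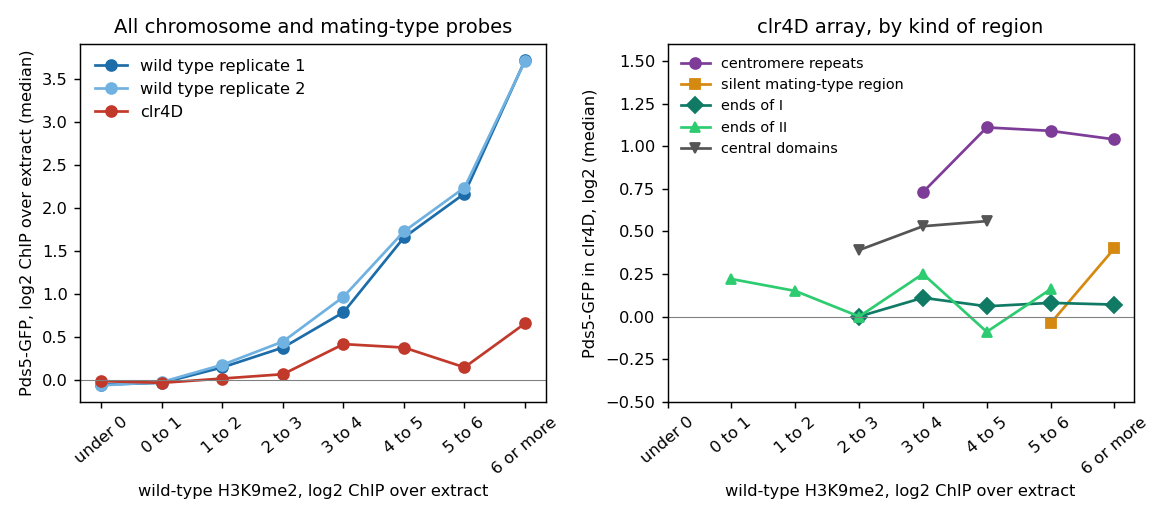
Left, median Pds5-GFP log2 ratio of probes in each class of wild-type H3K9me2, per array. Right, the clr4D medians by kind of region: in the class of 6 or more the repeats are at 1.04, the silent mating-type region at 0.40 and the ends of I at 0.07.

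Among probes of like H3K9me2, the kind of region still separated the clr4D levels. In the class of 6 or more, the 180 repeat probes had 4.19 and 4.24 in wild type and 1.04 in clr4D. The 43 probes of the silent mating-type region had 3.76, 3.61 and 0.40. The 90 probes at the ends of I had 3.36, 3.34 and 0.07. From 5 to 6, the 17 repeat probes kept 1.09, the 111 probes at the ends of I kept 0.08 and the 49 at the ends of II kept 0.16. The central domains have H3K9me2 ratios of 3 to 4 at 47 probes, where the median change was 0.01, and of 4 to 5 at 21 probes, where it was -0.32 and the wild-type medians were 0.57 and 1.01. On the arms the class of 3 to 4 (45 probes) changed by -0.34 and that of 4 to 5 (17 probes) by -0.27. The central domains were set by dim extract on the H3K9me2 arrays, which is the divisor of the H3K9me2 ratio. Their H3K9me2 classes are therefore uncertain and may not match those of the arms.

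The loss at the chromosome ends was smaller further inward, though not in every step. At the left end of I the difference was -3.08 in the outermost 10 kb, where H3K9me2 was 7.08, and -3.41 in the next. It was -0.66 at 40 to 50 kb, -0.45 at 60 to 70 kb and -0.05 at 90 to 100 kb, where H3K9me2 was 0.60. At the right end of I it was -3.11 in the outermost 10 kb and -1.92 at 10 to 20 kb, but -3.27 at 20 to 30 kb and -3.13 at 30 to 40 kb, although H3K9me2 was 5.32 at 10 to 20 kb and 5.14 at 30 to 40 kb. It was still -2.29 at 40 to 50 kb, then -0.49 at 50 to 60 kb and -0.28 at 100 to 110 kb, where all 32 probes remained below both wild-type arrays. At the left end of II the difference of -2.01 in the outermost 10 kb turned into 0.22 at 90 to 100 kb, where 25 of 31 probes were above both wild-type arrays. The right end of II went from -1.88 to -0.51 at 20 to 30 kb and 0.02 at 80 to 90 kb. In the outermost 10 kb of I the clr4D medians were 0.27 at the left and 0.23 at the right. The 127 probes of clones named pNSU, all with a shared suffix, went from 2.22 and 2.46 in wild type to 0.42.

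Chromosome III ends in rDNA. Its 71 probes, all with a shared suffix, had ratios of 1.11 and 1.16 in wild type and 0.58 in clr4D, but the ChIP channel alone was higher in clr4D, by 0.41. Inward of the rDNA, Pds5-GFP was higher in clr4D on both sides. At 30 to 40 kb from the left end the medians were -0.18, -0.14 and 0.21, with 30 of 33 probes above both wild-type arrays. At 20 to 30 kb from the right end they were 0.07, 0.12 and 0.37, with 28 of 33. H3K9me2 was -0.08 and 0.07 there.

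**Figure D4:**
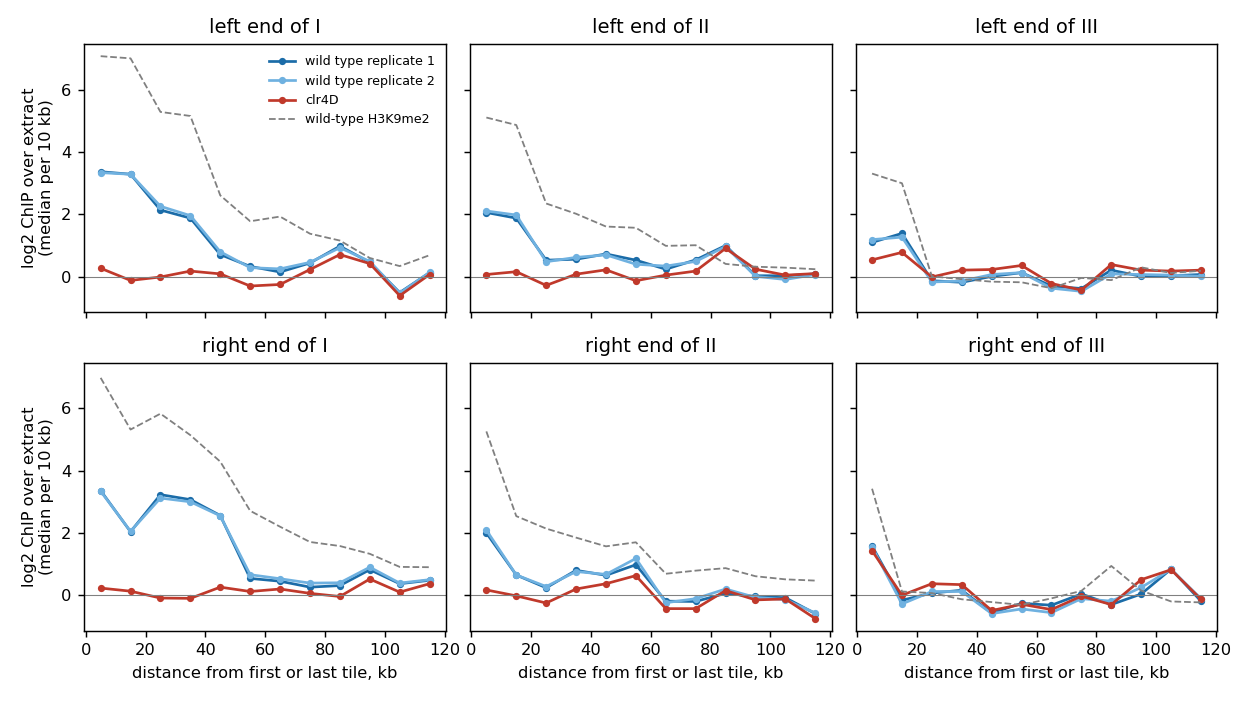
Median log2 ratio per 10 kb against distance from the first or last tile of each chromosome, in kb: Pds5-GFP on each of the 3 arrays (solid lines) and wild-type H3K9me2 (dashed line). At the ends of I and II the wild-type lines fall towards the clr4D line as H3K9me2 falls; at the left end of III clr4D lies above wild type at 30 to 40 kb.

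Genes were tested with limma over the 3824 with at least 3 probes in their coding span. The only residual degree of freedom comes from the wild-type pair, and the fit gave every gene the same standard error of 0.107, so the lone clr4D array is taken to vary as that pair does. At a Benjamini-Hochberg adjusted p under 0.05, 103 genes were lower in clr4D (2.69%) and 53 were higher (1.39%), together 4.08%. All 103 and all 53 lay outside both wild-type arrays, as did 2658 of the 3668 genes not called. By size alone, 26 genes (0.68%) stood 1 or more below both wild-type arrays and 0 (0%) stood as far above. No gene differed by 1 between the wild-type arrays. The counts of the test hang on the signal treatment, with 33 lower and 1 higher after normexp background correction and 50 lower and 24 higher for the ChIP channel alone. Without suffix probes, 7 genes met the size threshold downwards.

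The genes that fell lay where the mark was. Of the 38 measured genes within 50 kb of an end of I or II, 37 fell and none rose, and of the 44 at 50 to 100 kb 15 fell. Of the 37 within 20 kb of a centromere 14 fell. The remaining 37 of the 103 were among 3693 genes elsewhere. By H3K9me2 level, 20 of 21 genes at 5 or more fell, 14 of 25 at 3 to 5, 29 of 61 at 2 to 3, 24 of 138 at 1 to 2, and 16 of 3579 under 1.

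The steepest falls were of genes near the ends of chromosome I. SPAC212.07C, an uncharacterised gene at tiles 13800 to 14400, had 2.77 and 2.85 in wild type and -0.64 in clr4D, a change of -3.45. SPAC212.08C, SPAC186.08C, SPAC186.07C, SPAC212.09C, SPAC212.10 and gdt1 followed, with changes from -3.38 to -3.05. Beside them was pdc102, annotated as a pyruvate decarboxylase, with 2.78, 2.91 and -0.28. The telomere-linked helicase gene tlh1 (19 probes) had 3.48, 3.51 and 0.56, a change of -2.93, and was the only helicase of that pair with enough probes. SPAC750.01, SPAC977.14C, SPAC750.06C and, on chromosome II, SPBCPT2R1.01C changed by -2.48, -2.14, -2.06 and -2.02. All probes of these 4 and of SPAC212.09C and SPAC212.10 carry the shared suffix. In each of these the clr4D value was far below both wild-type arrays, whose gap was at most 0.32.

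Away from the ends, the largest losses were at separate loci of high H3K9me2. At ura4 (chromosome III, tiles 115800 to 116400), which encodes a pyrimidine synthesis enzyme and is a common selectable and silencing-reporter marker in this yeast, the wild-type arrays had 3.43 and 3.18 and clr4D 0.41, and H3K9me2 was 6.68. The loss ran over 8 probes from tile 114900 to 117000, including tam14. No probe of ura4 carries the suffix. If a strain held a second ura4 copy, its signal and that of the native gene could not be told apart on these probes, and the labels do not mention one. The other 6 measured marker genes, among them leu1, ade6 and lys1, had changes from -0.22 to 0.15, none past the test.

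At mae2, a malic enzyme gene on chromosome III (tiles 275400 to 276900), the values were 2.80, 2.77 and 0.00 with H3K9me2 at 6.80. The malate transporter gene mae1, on chromosome I from tile 4908000, had 2.40 and 2.05 in wild type and 0.60 in clr4D. Over the loss run of 6 probes there, the ChIP channel alone changed by -0.01 and the extract by 0.99. All 6 probes of mae2 and 2 of the 4 of mae1 carry the shared suffix, so where in the genome their signal arises is uncertain. A run of 5 probes without a coding span on chromosome II (tiles 2340000 to 2341200) went from 1.12 and 1.30 to 0.41, with H3K9me2 at 4.26. The ChIP channel alone changed by -0.22 there and the extract by 0.41. Next to the mating-type locus on chromosome II, emc3 and mtd1 fell by 0.65 and 0.68 in a run of 8 probes.

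The galactose genes gal1, gal10 and gal7, a subtelomeric cluster on chromosome II, all fell, with H3K9me2 of about 2. Such a fall was not particular to them. Probes at the ends of II with H3K9me2 of 1 to 2 and of 2 to 3 had median changes of -0.45 and -0.55. The change was -0.72 at gal1 (0.25, 0.46 and -0.37, limma adjusted p = 2.2e-09), -0.54 at gal10 and -0.52 at gal7. Beside the third centromere, ubc11 changed by -0.78 (0.97, 0.99 and 0.20), gid1 by -0.72, meu27 by -0.63, the checkpoint kinase gene chk1 by -0.58 and gyp2 by -0.53. Beside the first, fub1 changed by -0.46 (limma adjusted p = 0.0014) and rad50, a DNA repair gene, had 1.03, 1.2 and 1.41, which did not pass the test (limma adjusted p = 0.11). A 3 kb window within rad50 did, at 0.79, 0.92 and 1.24 (0.39 higher in clr4D, limma adjusted p = 0.0019), with H3K9me2 at 3.59, and was the only higher window in a centromere flank.

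Windows of 10 tiles (3 kb), which need no gene annotation, gave the same geography. Of 4158 windows, 203 were lower (4.88%) and 69 higher (1.66%) by limma at an adjusted p under 0.05. Every window holding repeat, silent-region or chromosome I end probes was lower, and 16 of 18 were at the right end of II. The largest falls outside the heterochromatin regions were at ura4 (-1.59), the window of SPAC977.14C (-1.32), mae2 (-1.22), a window at tiles 75000 to 77700 of chromosome II that holds SPBPB21E7.09 (-0.98), and gid1 with ubc11 (-0.73). Of 3894 windows on the arms, 42 were lower and 63 higher. The share lower was 15.1% for the 139 arm windows with H3K9me2 of 1 or more and 0.483% for the 3517 under 0.5. All 63 higher ones were among the latter, a share of 1.79%, which is near the 1.62% of all arm windows.

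A high H3K9me2 level did not always go with a loss. Meiotic genes silenced through the RNA-binding protein Mmi1 carry islands of the mark. At mei4, a meiotic transcription factor gene, H3K9me2 was 5.05, yet Pds5-GFP was 1.85 and 1.82 in wild type and 1.66 in clr4D. At ssm4, with H3K9me2 of 4.04, it was 0.10, 0.14 and 0.03, and at mcp7, with 3.52, it was -0.59, -0.63 and -0.82. Both of these had little Pds5-GFP to lose in wild type. Of the 10 measured genes of this list only meu1 fell (0.40, 0.38 and 0.02, limma adjusted p = 0.021), and it lies within 20 kb of a centromere. The list's median change was -0.08, beside 0.04 over all genes. Its members mug8, rec8, spo5, crs1 and mug10 had H3K9me2 of only -0.06 to 0.64, so this median says little about marked genes.

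The genes of cohesin and of heterochromatin formation changed little in size. By limma, no cohesin gene or regulator, of 11 measured, passed the test, nor an unadjusted p of 0.05, with changes from -0.09 at rec11 to 0.20 at wpl1. Of 15 measured heterochromatin factor genes 2 rose, against 1.39% of all genes. The 15 include the deleted clr4, whose ratio in clr4D rests on very weak signals (extract at -6.55, ChIP at -6.56). The 2 that rose were rdp1, the RNA-directed RNA polymerase, with 0.82, 1.27 and 1.47, and chp2, an HP1 protein, with -0.29, -0.11 and 0.13. Most alternative settings did not keep the call of chp2 (limma adjusted p = 0.048). At rdp1 the gap within the wild-type pair exceeded that between clr4D and the higher array. Of 31 ribosomal protein genes 1 fell, rps1701, by 0.35, a share near the 2.69% of all genes. None rose by adjusted p, 5 were higher at an unadjusted p under 0.05, and the list's median change was 0.11. By limma, the test called no member of 3 further lists, the 10 strongly transcribed genes, the 4 genes of the heat-shock response and the 7 Tf2 retrotransposons. At an unadjusted p under 0.05 there were 4 higher in the first list, 1 lower in the second and 0 in the third. At that unadjusted limma p, 324 of all 3824 genes were higher and 219 lower. The unadjusted counts of these lists and of the ribosomal protein genes are to be read beside that share. The Tf2 copies, whose signals cannot be assigned to single copies, were at 0.67 to 0.99 in wild type and at 0.84 to 1.05 in clr4D.

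On the chromosome arms, gains in clr4D were small. The 38745 arm probes measured on all 3 arrays differed between clr4D and the wild-type arrays with standard deviations of 0.227 and 0.20, and between the wild-type arrays with 0.183. In a running median of 5 probes, 28 of 38897 arm probes lay at least 0.5 above both wild-type arrays (0.072%) and 49 lay as far below both (0.126%). Between the wild-type arrays, 66 probes of replicate 2 lay 0.5 above replicate 1, and 26 the other way. At a threshold of 1 the counts were 0 above, 16 below, and 0 either way within the pair. Those pair counts involve 1 array against 1. Counted likewise, clr4D lay 0.5 above replicate 1 at 302 probes and above replicate 2 at 56, and as far below them at 145 and 88. Against replicate 1, gains were thus more frequent than either count of the pair, and against replicate 2 they lay between the 2 counts. In the ChIP channel alone there were 674 gains and 984 losses.

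The 28 probes formed 18 runs, of 1 to 4 probes. The run with the highest median difference was 1 probe in tef5 on chromosome III (0.78, from -0.08 and -0.02 to 0.73), followed by 1 in tif302 (0.76) and 4 at spp2, a splicing factor gene (0.75, from 0.79 and 1.22 to 1.76). The next were single probes at tiles 1246800 and 969000 of chromosome I, at 0.71 and 0.69. In all 5 the H3K9me2 ratio was below 0.

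Among genes, the 10 largest rises were between 0.46 and 0.59. They were spp2, sec39, zfs1, pre6, tif302, SPCC1884.01, SPCC569.03, ebp1, SPCC594.02C and tef5. At spp2 the values were 0.87, 1.21 and 1.63 (limma adjusted p = 4.8e-06). At sec39, a vesicle transport gene, they were 0.29, 0.35 and 0.88, and at zfs1, an RNA-binding zinc finger gene, 0.32, 0.28 and 0.83, so that in both the rise was much larger than the gap of the pair. At pre6, a proteasome subunit gene, the values were -0.85, -1.55 and -0.67, and there the gap within the wild-type pair exceeded that between clr4D and the nearer array. At ebp1 the ChIP channel alone was lower in clr4D, by -0.15. The 5 windows with the largest rises lay at SPCC1884.01 (0.54), sec39 (0.51), SPCC297.06C with qcr7 and ima1 (0.51), rpn2 with spp2 (0.48), and SPAC56E4.03 with cut6 (0.48).

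Of the 53 genes that rose, 22 were on chromosome III, 16 on I and 15 on II. Counting only genes away from centromeres and ends, 2.82% of 673 rose on III, 0.956% of 1674 on I and 1.11% of 1346 on II. The arm medians on III changed by 0.05 on the left and 0.059 on the right, and by 0.008 to 0.023 on the 4 arms of I and II. Within 50 kb of the ends of III, 3 of 12 measured genes rose, SPCC1884.01, SPCC569.03 and SPCC569.07, and none fell, by adjusted or unadjusted p, against 1.39% and 2.69% of all genes. SPCC569.07 was named after its values were seen. All 4 probes of SPCC569.03 carry the shared suffix, so where in the genome its signal arises is uncertain. Differences between chromosomes were not tested. In 38 of the 53 genes that rose and in 52 of the 69 windows, wild-type replicate 2 was above replicate 1. The same held for 67 of the 103 genes that fell and for 1783 of the 3668 not called.

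On the ratio scale, the arms of clr4D also had taller peaks. Between convergent genes (2114 probes) the mean was 0.325 and 0.314 in wild type and 0.414 in clr4D. Between divergent genes (5464 probes) it was -0.155, -0.192 and -0.219, and between tandem genes (6751 probes) 0.021, -0.01 and 0.007. The convergent excess over divergent probes was 0.479 and 0.506 in wild type and 0.634 in clr4D, but in the ChIP channel alone it was 0.713, 0.652 and 0.691, so the clr4D excess there lay between the wild-type arrays.

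Peaks were also chosen on 1 wild-type array and read on the others. The 1819 arm probes at 1 or more on wild-type replicate 1, with H3K9me2 under 1, had medians of 1.25 on replicate 2 and 1.35 in clr4D. The 1898 chosen on replicate 2 had 1.2 on replicate 1 and 1.35 in clr4D. Where H3K9me2 was 1 or more, the peaks chosen on replicate 1 (218 probes) had 1.43 on replicate 2 and 1.14 in clr4D, and those chosen on replicate 2 (245 probes) had 1.31 on replicate 1 and 1.09 in clr4D. Peaks without the mark were thus as high or higher in clr4D, and peaks with it lower, on this scale. The spread of arm ratios grew from a standard deviation of 0.539 and 0.565 in wild type to 0.591 in clr4D. In the ChIP channel alone, the peaks chosen on replicate 1 were lower in clr4D than in replicate 2, by -0.05, and those chosen on replicate 2 higher than in replicate 1, by 0.05.

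**Figure D5:**
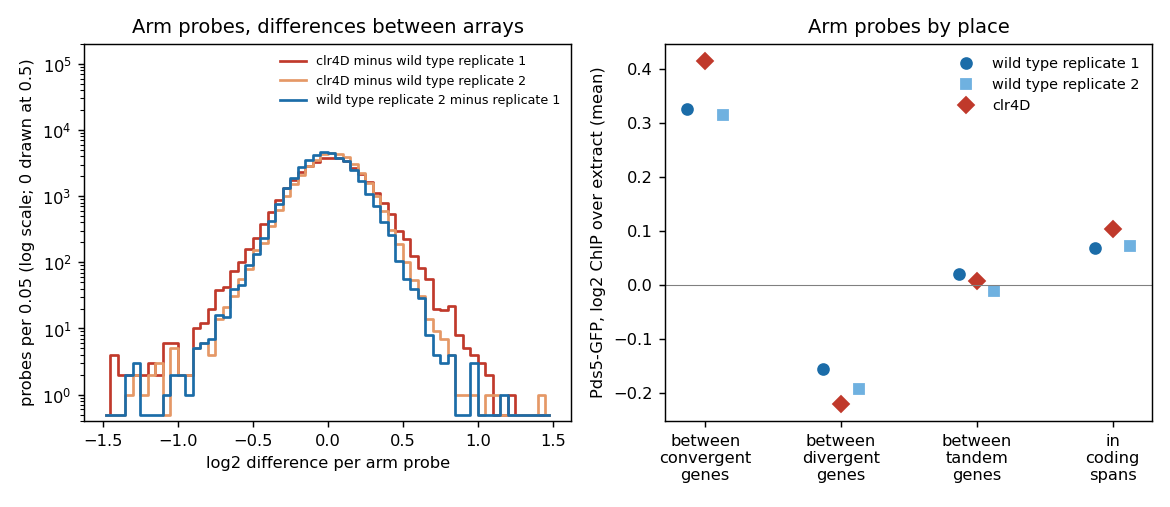
Left, number of arm probes by log2 difference between arrays (log axis, classes of 0.05), for clr4D against each wild-type array and for the wild-type pair. Right, mean Pds5-GFP log2 ratio of arm probes by place; clr4D is at 0.414 between convergent genes against 0.325 and 0.314 in wild type.

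The single swi6D array shares the wild-type arrays as its control, and its slide with wild-type replicate 2. Its median was 1.52 at the centromere repeats and 0.30 in the silent mating-type region. At the ends of I it was 0.11 and 0.12, and in the central domains -0.03. In clr4D these values were 1.04, 0.38, 0.09, 0.06 and 0.53.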

How the data were processed

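DNA of ChIP (Cy5) and whole-cell extract (Cy3) was hybridised together, per the labels, with the same dyes on every array. Per the file headers, the scanner images went through Agilent Feature Extraction, version 12.0.3.1. The intensity values of both channels were already background-subtracted and scaled by linear dye factors, per the file headers. The deposited table holds log2 ratios equal to the log2 of the processed signals' ratio, not centred, and was an alternative. Control spots and outlier-flagged spots (72 and 99 in wild type, 2 in clr4D) were left out, and array medians were subtracted.

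No source used here gives the build of the tiles. To place genes of the reference (ASM294v3), blocks of at least 100 probes were shifted along it in 50 bp steps until base composition followed the extract signal. This placed 40571 of 41251 chromosome probes. The central domains were set by dim extract on the H3K9me2 arrays of wild-type cells and cells lacking pds5. The silent region was set by wild-type H3K9me2 of 4 or more. Arms begin 20 kb from centromere repeats, and 100 kb (I, II) or 50 kb (III) from the chromosome ends.

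Genes and windows were tested with limma 3.58.1 (lmFit, eBayes) in R 4.3.3, with Benjamini-Hochberg adjustment over all units. The variance prior had infinite degrees of freedom, so adjusted p-values treat the pooled spread of the wild-type pair as known and are much too small if clr4D varies more. The fit was tested on simulated data. Named genes are the 15 largest falls and 10 largest rises past the test and outside both wild-type arrays, the top windows and runs, and members of gene lists. The members and lists were chosen with earlier results of these data known.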

Additional observations from a re-analysis of the deposited data

How the results depend on the processing

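The medians of all heterochromatin regions together fell by 2.08, and every alternative kept the direction, with -1.98 in the deposited ratios, -2.24 after normexp, -1.96 after loess, -1.94 in the ChIP channel alone, -2.10 with outlier spots kept, -1.38 without suffix probes and -2.01 by means. Leaving out 1 wild-type array gave -2.09 to -2.07. At H3K9me2 of 6 or more the change of -3.05 became -3.01, -3.22, -2.85, -3.08, -2.41 and -2.99 with deposited, normexp, loess, scaled, ChIP-only and suffix-free values, -3.08 with smoothed H3K9me2 and -2.98 with deposited classes, and -3.06 to -3.05 without 1 wild-type array. At 0 to 1 it turned to 0.00 with loess and 0.02 for ChIP alone. Arm gains (28) became 267 with normexp, 12 when scaled, 674 for ChIP alone, 569 and 0 at thresholds of 0.3 and 1, 78 for single probes, 46 with a median of 3, and 56 to 302 without 1 wild-type array. Arm losses (49) became 107 with normexp, 984 for ChIP alone, 411 and 16 at those thresholds, 125 for single probes, and 88 to 145 without 1 array. Genes lower (103) became 33 with normexp, 68 with loess, 50 for ChIP alone, 44 with at least 5 probes and 158 with 500 bp added. Genes higher (53) became 1 (SPCC594.02C), 30 and 24 with the first 3 of these and 35 when scaled. Windows lower (203) became 130 for ChIP alone, 113 without suffix probes, and 378 and 118 with 5 and 20 tiles. Windows higher (69) became 32 with loess, 40 when scaled, 12 for ChIP alone and 45 with 20 tiles. By size, 26 genes became 7 without suffix probes, 41 at a threshold of 0.5 and 26 to 27 without 1 wild-type array. None stood 1 above, also without either wild-type array, and 2, sec39 and zfs1, stood 0.5 above. The cause of these shifts was not tested.

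The central domains had no stable sign. The first turned to 0.15 with normexp, 0.01 with loess, 0.12 without suffix probes, and -0.22 to 0.13 without 1 wild-type array. The second turned to -0.01 when scaled, -0.12 for ChIP alone, -0.07 without dim spots, -0.10 without replicate 1 and -0.13 by means. The third turned to -0.02 with deposited ratios, -0.02 with outliers kept, -0.29 without suffix probes and -0.05 by means. Together they turned to -0.15 for ChIP alone, -0.02 without dim spots and -0.11 by means, and ran from -0.10 to 0.14 without 1 wild-type array. For ChIP alone, rDNA turned to 0.41, ebp1 to -0.15 (limma adjusted p = 0.87) and the arm peaks of replicate 1 to -0.05. The convergent excess and the peaks chosen on 1 array were added after seeing the data. No paired analysis was possible because the clr4D array carries no replicate number. The same-slide comparison could not be run, since no wild-type array shares the slide, and limma was not run without a wild-type array, which leaves no residual degrees of freedom. The deposited ratios were not used for the mating-type contig. With 3 arrays, their number limits the precision.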
